A study of Mus musculus with 23 samples.

Results

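The 9 neuropeptide genes Npy, Cort, Sst, Vip, Cck, Tac1, Penk, Pdyn and Crh were taken by symbol from the 52636 genes counted in mouse hippocampus. They are known as peptides of hippocampal interneurons and dentate granule cells, but which cells made each RNA was not measured here. All 9 passed the filter on low counts, among 17788 genes tested. The 23 RNA-seq libraries came from 6 P301S samples kept in hypoxia, 5 P301S samples in normoxia, 6 wild-type (WT) samples in hypoxia and 6 WT samples in normoxia. P301S stands for a mutation of human tau that causes frontotemporal dementia and that the mice carry as a transgene, and the exposure named in the series title is chronic intermittent hypoxia, a model of the breathing pauses of sleep apnoea. All mice had a mixed C57Bl6 and Balbc background. The transgene's promoter and line, the ages, the sexes and the hypoxia regimen are not stated in the labels. Nothing says which libraries are from separate animals. The p-values below therefore rest on the spread among libraries, which may be technical.

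Neuropeptides are cut from larger precursor proteins in dense-core vesicles and released on strong activity to act on G-protein-coupled receptors. In the hippocampus, somatostatin and neuropeptide Y are made by dendrite-targeting interneurons, which hold back the input to principal cells. Vasoactive intestinal peptide marks interneurons that inhibit other interneurons, and cholecystokinin marks a class of basket cells. Dynorphin and enkephalin are opioid peptides of the granule cells and their mossy fibres.

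The libraries held 23.8 to 25.8 M counts in P301S hypoxia, 23.1 to 25.4 M in P301S normoxia, 19.1 to 24.9 M in WT hypoxia and 22.8 to 25.8 M in WT normoxia. Lamr1-ps1, a pseudogene at the prion locus that tracked genotype, had 35 to 98 counts in the 11 P301S libraries and 0 in the 12 WT libraries. Ddx3y, a Y-linked gene, was present in all 23 libraries at 84.6 to 125 CPM. CPM are counts per M counts of a library, after scaling of the library sizes. All 10 markers of hippocampal neurons were measured and summed to 8610 to 11600 CPM. Of 17 hypothalamus markers 7 were measured, at a summed 27 to 64.1 CPM. Markers of choroid plexus, a tissue next to the hippocampus, ranged over 74 to 3770 CPM. In 6 libraries they were far below the rest, namely P301S hypoxia replicates 1 and 4, WT hypoxia replicates 1, 4 and 5, and WT normoxia replicate 4. For Npy, Cort, Sst, Vip, Cck, Tac1, Penk, Pdyn and Crh, results are therefore also given without those 6 where that ends a call. For the other genes named below, calls are not given without those 6 or in the other alternative fits. Whether their calls hold there is not known. Over all genes, calls without those 6 fell from 1130 to 389 between the genotypes in normoxia. For the mean hypoxia effect they fell from 236 to 60.

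Sequence upstream of the genes is shown for the 3 peptides whose levels differed in a single-condition comparison, since the cyclic AMP response element (CRE), bound by the activity-dependent factor CREB, was first described in the somatostatin promoter. RefSeq windows of 250 bases before the annotated start (GRCm38.p6) were found for 7 of the 9 genes, not for Penk and Crh. The window of Npy lies at chr6:49822460-49822709 on the plus strand, that of Sst at chr16:23890845-23891094 and that of Cort at chr4:149126764-149127013, both on the minus strand. Each is printed 5′ to 3′ along the gene, with capitals for the CRE half-site TGACG or its reverse complement CGTCA.
Npy: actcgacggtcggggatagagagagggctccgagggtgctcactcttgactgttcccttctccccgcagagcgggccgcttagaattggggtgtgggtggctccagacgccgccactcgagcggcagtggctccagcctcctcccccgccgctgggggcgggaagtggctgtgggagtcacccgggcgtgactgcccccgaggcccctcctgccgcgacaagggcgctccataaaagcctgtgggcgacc
Sst: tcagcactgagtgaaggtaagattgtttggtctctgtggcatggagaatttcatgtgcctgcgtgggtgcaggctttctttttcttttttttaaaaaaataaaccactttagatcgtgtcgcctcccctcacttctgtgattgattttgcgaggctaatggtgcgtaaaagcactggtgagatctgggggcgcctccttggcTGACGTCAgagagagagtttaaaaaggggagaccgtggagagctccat
Cort: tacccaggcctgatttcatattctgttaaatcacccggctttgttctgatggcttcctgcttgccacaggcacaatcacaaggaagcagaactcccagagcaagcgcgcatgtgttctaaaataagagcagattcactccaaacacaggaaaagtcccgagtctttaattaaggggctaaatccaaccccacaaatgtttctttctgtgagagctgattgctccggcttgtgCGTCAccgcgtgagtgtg
The Sst window held the full palindrome TGACGTCA, whose first base lies 48 bases before the start and which is made of both overlapping half-sites. Of 32851 mouse windows of this length, 1.55% held the full CRE and 17.8% a half-site on either strand. Cort, Vip and Cck had 1 half-site each and Tac1 had 2, while Npy and Pdyn had none. The Tac1 start used here lies 182 bases inside the gene body of the deposited tables, so most of its window is not upstream of it. For Pdyn, windows were searched at a start 94 bases before the gene edge and at another 1186 bases inside it. The AP-1 site TGANTCA, present in 6.75% of all windows, was in no window of the 7 genes. The core of the hypoxia response element was searched as ACGTG, found in 16.6% of all windows, and as GCGTG, found in 28.2%. Npy, Sst, Cort and Tac1 held the second form and Cck and Tac1 held the first. A match describes letters in the window and is not a measured binding site.

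Per kilobase of exon, somatostatin and cholecystokinin were the most abundant of the 9 RNAs in the hippocampus, and corticotropin-releasing hormone the least. Averaged over all libraries, Sst stood at 167 ± 28.6 CPM per kb (SD, n = 23), Cck at 112 ± 18.2 and Npy at 43.1 ± 7.62. Penk followed at 12.1 ± 3.28 CPM per kb. Pdyn (4.61 ± 0.727), Vip (4.27 ± 0.838) and Cort (4.08 ± 1.81 CPM per kb) lay within each other's spread, and Tac1 (1.31 ± 0.405) and Crh (0.804 ± 0.221 CPM per kb) were lowest. The ranges of Sst (111 to 218 CPM per kb) and Cck (82.5 to 149) overlapped too, while Npy (27 to 55.4) lay apart from both. Low counts stand behind the last genes of that order: Crh had 14 to 42 counts per library and Cort 34 to 128, against 2106 to 3789 for Sst. Of the Penk exons, 20.9% lie under the overlapping gene A830012C17Rik, where reads were dropped, so its level and its changes are less certain. The other 8 genes overlap no other gene. Counts cover whole gene bodies, introns included, while the scaling uses exon length alone. Gene body and exon length were 6798 and 566 bp for Npy, against 1264 and 721 bp for Sst. Reads from introns were not separated, so the order of the genes is approximate. In the deposited tables (GRCm38), Vip lies at chr10:5639218-5647617, Cck at chr9:121489824-121495694, Tac1 at chr6:7554879-7565834, Penk at chr4:4133531-4138819 and Pdyn at chr2:129686565-129699844.

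**Figure D1:**
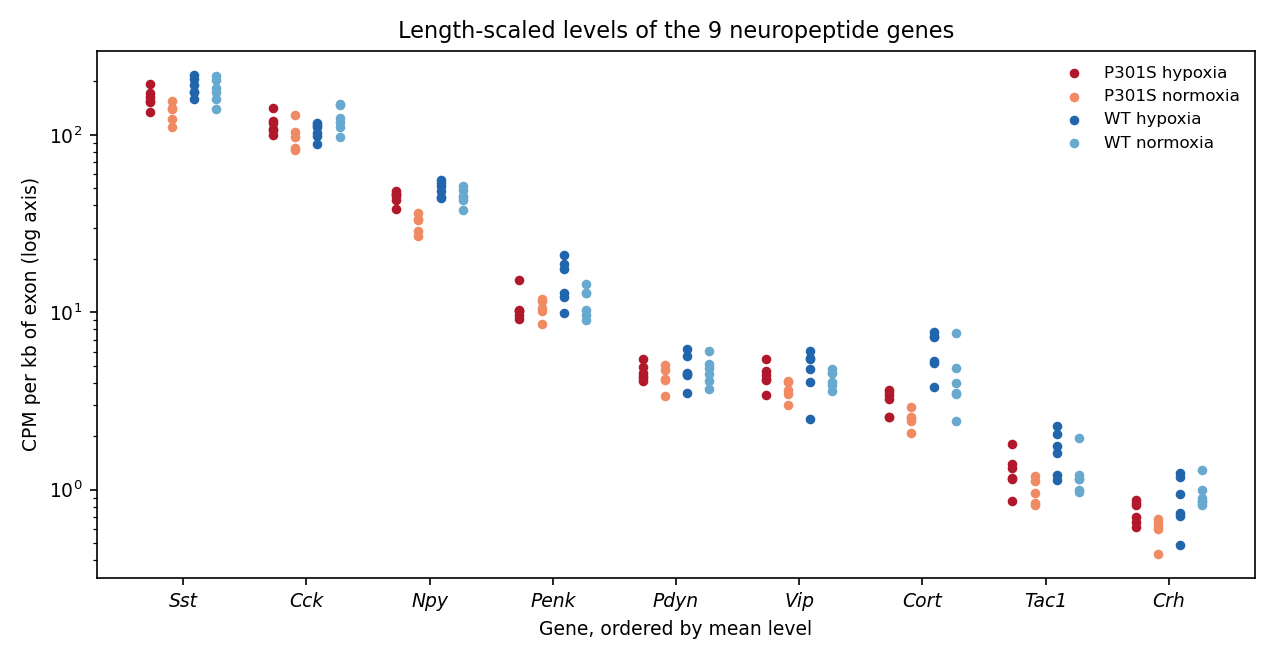
Level of each neuropeptide gene in every library, as CPM per kb of exon on a log axis, with 1 point per library and colours for the 4 groups. Sst and Cck were the highest and Crh the lowest, and levels differed far more between genes than between groups.

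In normoxia, P301S hippocampus had less Npy and less Sst RNA than WT. All 9 genes had negative fold changes, with a median log2 change of -0.32, against 0.01 over all genes tested. Those called lower by edgeR's quasi-likelihood test were Npy and Sst, 2 of 9, where 3.78% of all tested genes were called lower and 6.35% in either direction. Cort and Crh were of larger size but fell short of the threshold, an adjusted p of 0.05. In bulk tissue, fewer cells of a type and less RNA per cell cannot be told apart.

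Npy (ENSMUSG00000029819, chr6:49822710-49829507, plus strand, GRCm38) encodes neuropeptide Y, which dampens glutamate release. It stood at 18.6, 20.4, 16.1, 15.3 and 18.9 CPM in the 5 P301S normoxia libraries, against 21.4 to 29.1 CPM (median 25.3) in WT normoxia. No P301S library reached the lowest WT one. The log2 fold change was -0.51 (SE 0.0874, adjusted p = 0.00266, edgeR), or 0.702 of the WT level. The call held under all 11 alternatives run, with values of -0.52 to -0.43, and in all 23 fits that left out 1 library (-0.56 to -0.47).

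Sst (ENSMUSG00000004366, chr16:23889581-23890844, minus strand, GRCm38) encodes somatostatin, the peptide of oriens-lacunosum moleculare and hilar interneurons. It stood at 111, 100, 102, 80.4 and 88.4 CPM in P301S normoxia, against 101 to 154 CPM (median 129) in WT normoxia. The groups overlapped through WT replicate 1 and P301S replicates 1 and 3. The log2 fold change was -0.42 (SE 0.107, adjusted p = 0.0235, edgeR). This call was less firm than that of Npy, since it was lost without WT normoxia replicate 5 (adjusted p = 0.0522) and without P301S normoxia replicate 2, 4 or 5 (0.0546, 0.0666 and 0.0632). It was lost too with only the groups compared in the fit (-0.42, adjusted p = 0.063). It was also lost when the trends of counts with gene length and GC were removed library by library, where the fold change was -0.24 (adjusted p = 0.149), and without the 6 libraries low in choroid plexus (-0.36, adjusted p = 0.062).

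Cort (ENSMUSG00000028971, chr4:149125034-149126763, minus strand, GRCm38) encodes cortistatin, a somatostatin-like peptide of interneurons that binds the somatostatin receptors. It stood at 1.64, 1.98, 1.42, 1.72 and 1.73 CPM in P301S normoxia, against 1.65 to 5.19 CPM (median 2.54) in WT normoxia. Its log2 fold change was -0.79 (SE 0.246, adjusted p = 0.055, edgeR), with a 95% interval of -1.3 to -0.28. The highest WT value, replicate 4, belongs to a library low in choroid plexus markers.

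Crh (ENSMUSG00000049796, chr3:19693401-19695396, minus strand, GRCm38) encodes corticotropin-releasing hormone, in the hippocampus a stress peptide of interneurons. It stood at 0.904, 0.859, 0.791, 0.572 and 0.827 CPM in P301S normoxia, against 1.07 to 1.7 CPM (median 1.16) in WT normoxia. The groups did not overlap, as for Npy, yet on 15 to 21 counts per P301S library the test did not pass: the log2 fold change was -0.67 (SE 0.207, adjusted p = 0.0528, edgeR). Non-overlapping lower values were found for 1.72% of all tested genes.

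The other 5 genes did not pass the test in normoxia. Cck had the largest value per error among them, a log2 fold change of -0.32 (SE 0.12, adjusted p = 0.107, edgeR). For Tac1, the precursor of substance P, the 95% interval ran from -0.76 to 0.12, and for Vip from -0.54 to 0.1. Those of the opioid precursors were -0.49 to 0.23 for Penk and -0.4 to 0.15 for Pdyn.

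**Figure D2:**
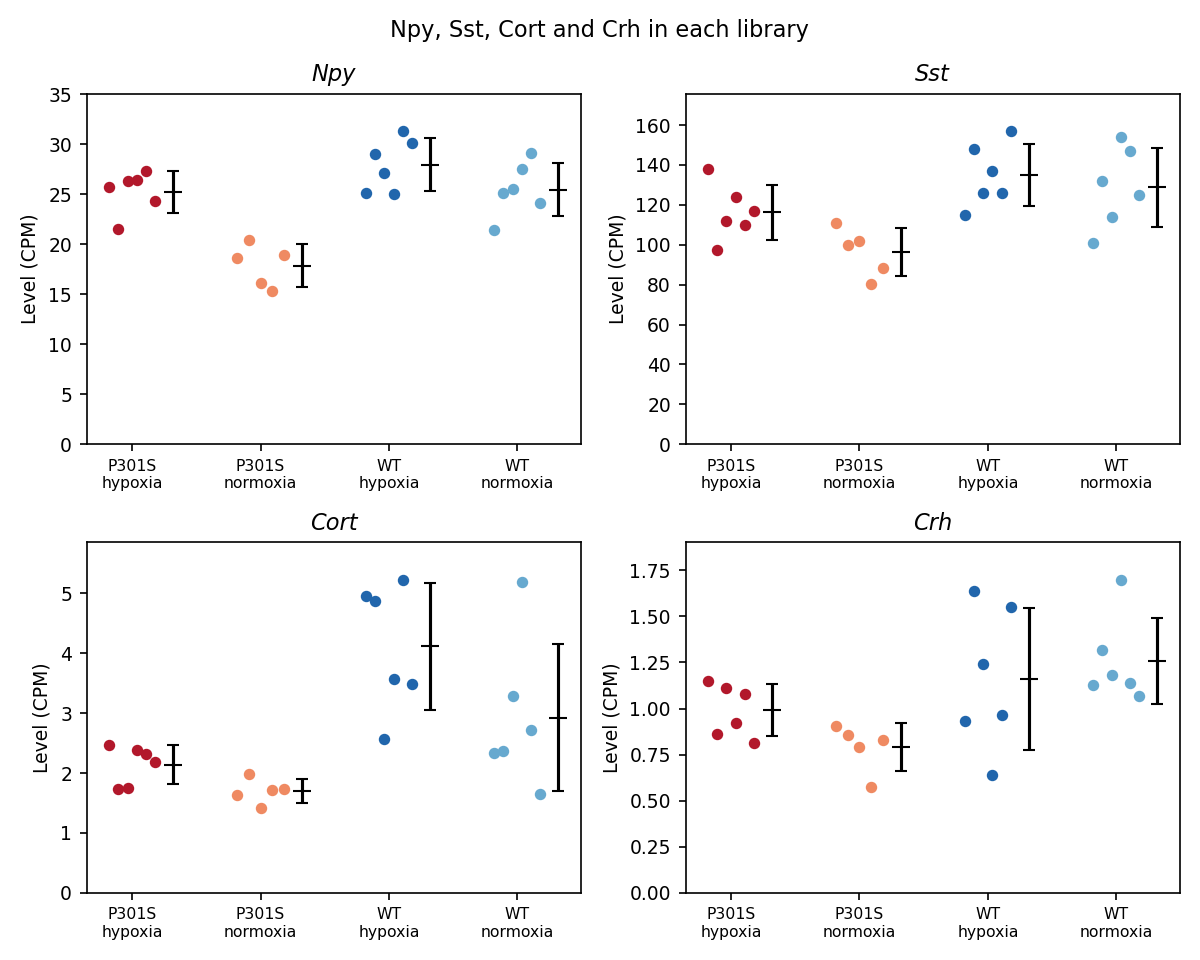
Levels of Npy, Sst, Cort and Crh in CPM by group, with 1 point per library and bars for the mean and SD. Every P301S normoxia library lay below every WT normoxia library for Npy and Crh, and every P301S hypoxia library below every WT hypoxia library for Cort.

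Gene length moved with the normoxia difference and is given beside it. The 9 genes are short, with gene bodies of 1.26 kb (Sst) to 13.3 kb (Pdyn). Among the 6336 tested genes no longer than Pdyn, 68.6% had a negative fold change and 8.05% were called lower, against 36.2% and 1.41% of the 11452 longer genes. The median of the short genes was -0.1. The negative sign of all 9 peptides is thus shared with most short genes, while Npy stayed called at -0.43 (adjusted p = 0.0179, edgeR) once the trend with length and GC content was removed.

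In hypoxia, Cort was the single peptide called between the genotypes, lower in P301S. Of the 9 genes 8 had negative fold changes, with a median log2 change of -0.21. Called lower was 1 of 9, where 1.34% of tested genes were called lower and 1.87% in either direction. Among genes no longer than Pdyn, 64.3% had a negative fold change and 3.2% were called lower, against 42% and 0.314% of the longer genes. Cort ran from 1.73 to 2.46 CPM (median 2.25) in P301S hypoxia, against 2.56 to 5.23 CPM (median 4.23) in WT hypoxia. The groups did not overlap, which held in the lower direction for 1.25% of tested genes. The log2 fold change was -0.94 (SE 0.213, adjusted p = 0.0241, edgeR), or 0.523 of the WT level.

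The Cort call rested on few counts, 42 to 60 per P301S library. It was lost without WT hypoxia replicate 2 or 5 (adjusted p = 0.0759 and 0.0588) and without P301S hypoxia replicate 2 or 3 (0.063 and 0.0681). Without the 6 libraries low in choroid plexus the fold change was -0.87 (adjusted p = 0.156), and with the length and GC trend removed -0.81 (adjusted p = 0.0818), so its size moved less than its p.

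Npy and Sst did not pass the test between the genotypes in hypoxia. Npy ran from 21.5 to 27.3 CPM (median 26) in P301S hypoxia, against 25 to 31.3 CPM (median 28) in WT hypoxia, with a log2 fold change of -0.15 (SE 0.0808, adjusted p = 0.341, edgeR). Sst ran from 97.4 to 138 CPM (median 114) in P301S hypoxia and from 115 to 157 CPM (median 132) in WT hypoxia, with -0.21 (SE 0.101, adjusted p = 0.27, edgeR). Both overlapped between the genotypes.

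Penk had the second largest difference in hypoxia, and encodes the enkephalin precursor. It ran from 15 to 24.7 CPM (median 16.6) in P301S hypoxia, against 16.2 to 34.4 CPM (median 24.7) in WT hypoxia, a log2 fold change of -0.51 (SE 0.163, adjusted p = 0.099, edgeR). It was called with DESeq2, with an interneuron marker score as covariate, and without P301S hypoxia replicate 1, the library that held its highest P301S value. Within groups Penk went with marker scores of CA2 and CA3 (r = 0.71), thalamus and habenula (0.66) and interneurons (0.64). Those of striatum (0.57) and hypothalamus (0.54) came next. WT hypoxia replicate 1, at 34.4 CPM of Penk, also had the highest thalamus and habenula sum of all libraries, 619 CPM. The part of CA2 and CA3, thalamus and habenula, striatum or hypothalamus in the Penk difference was not tested. Cck was the one gene with a positive value, 0.14 (SE 0.114), and 95% limits of -0.1 to 0.37.

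Averaged over both conditions, 4 of 9 genes were called lower in P301S, where 7.76% of all tested genes were lower and 13.1% called in either direction. These were Npy (-0.33, SE 0.0595, adjusted p = 0.00104), Cort (-0.86, SE 0.162, adjusted p = 0.00146), Sst (-0.32, SE 0.0735, adjusted p = 0.00701) and Crh (-0.46, SE 0.142, adjusted p = 0.0337), all by edgeR. Among genes as short as these peptides, 16.3% were called lower. Npy and Cort were called under all 10 alternatives run and all 23 fits with 1 library left out. The Npy value averages -0.51 in normoxia and -0.15 in hypoxia, so it rests largely on the normoxia difference already given. Sst lost its call with the length and GC trend removed (adjusted p up to 0.151), and Crh there, with no filter on low counts and in 8 of the 23 fits. The other 5 genes had values of -0.36 (Tac1) to -0.09 (Cck and Pdyn) and did not pass.

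**Figure D3:**
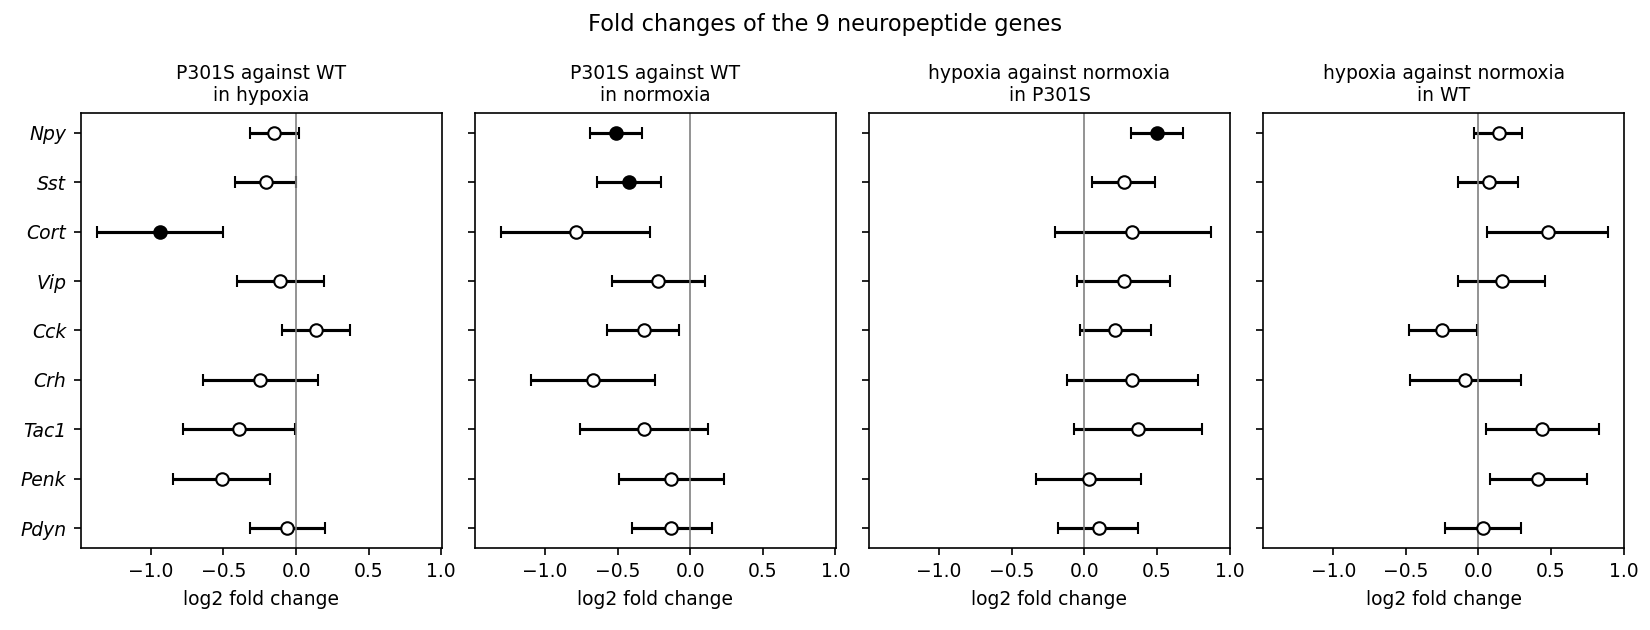
Log2 fold changes of the 9 neuropeptide genes with 95% intervals in 4 comparisons, filled where the adjusted p was below 0.05. Npy and Sst were filled and negative for P301S against WT in normoxia, Cort for P301S against WT in hypoxia, and Npy was filled and positive for hypoxia against normoxia in P301S.

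With hypoxia, P301S hippocampus had more Npy RNA. It ran from 21.5 to 27.3 CPM (median 26) in P301S hypoxia, against the 5 values of 15.3 to 20.4 CPM in P301S normoxia, and no library of the exposed group fell as low as the highest unexposed one. The log2 fold change was 0.5 (SE 0.0874, adjusted p = 0.0134, edgeR), or 1.41 times the normoxia level, rank 9 by p among all genes tested. It was the 1 peptide of 9 called, where 0.18% of tested genes were called higher and 0.41% in either direction. Non-overlapping higher values were found for 1.01% of tested genes. This comparison and that of the genotypes in normoxia share the 5 P301S normoxia libraries, so both Npy differences, of near equal size, are not separate evidence. The mean transgene and mean hypoxia values of Npy include those 5 libraries too.

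The call held under all 11 alternatives, with values of 0.48 to 0.51, including 0.48 (adjusted p = 0.0498) without the 6 libraries low in choroid plexus. It was lost without P301S normoxia replicate 3 (0.46, adjusted p = 0.0639) or replicate 4 (0.44, adjusted p = 0.0566), which hold the lowest Npy values of that group.

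All 9 genes had positive fold changes with hypoxia in P301S, with a median log2 change of 0.27, against 0 over all genes. Negative values were found for 50.9% of all tested genes and 44.3% of those no longer than Pdyn. The negative signs between the genotypes in normoxia use the same P301S normoxia libraries, so both runs of signs are not separate evidence. Sst ran from 97.4 to 138 CPM in P301S hypoxia, against 80.4 to 111 CPM in P301S normoxia, and its fold change of 0.27 (SE 0.107, adjusted p = 0.249, edgeR) did not pass. Tac1 (0.37), Crh (0.33), Cort (0.33), Vip (0.27) and Cck (0.21) had intervals that held 0, and Penk (0.03) and Pdyn (0.1) were nearest to no difference.

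In WT, 0 of 9 peptides were called with hypoxia by edgeR or by DESeq2, in a comparison where 13 genes, 0.0731% of those tested, were called. At an unadjusted p below 0.05 there were 4 of 9, where 11.6% of all genes were. Cort ran from 2.56 to 5.23 CPM (median 4.23) in WT hypoxia and from 1.65 to 5.19 CPM (median 2.54) in WT normoxia, a log2 fold change of 0.48 (SE 0.201, adjusted p = 0.342). Tac1 had a value of 0.44 (SE 0.189), Penk of 0.41 (SE 0.162) and Cck of -0.25 (SE 0.114). Npy ran from 25 to 31.3 CPM in WT hypoxia and from 21.4 to 29.1 CPM in WT normoxia, with a 95% interval of -0.03 to 0.3 for its log2 change. Title numbers of unexplained meaning are shared by WT libraries within a condition and never across conditions, so whatever they stand for cannot be told apart from hypoxia in WT.

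**Figure D4:**
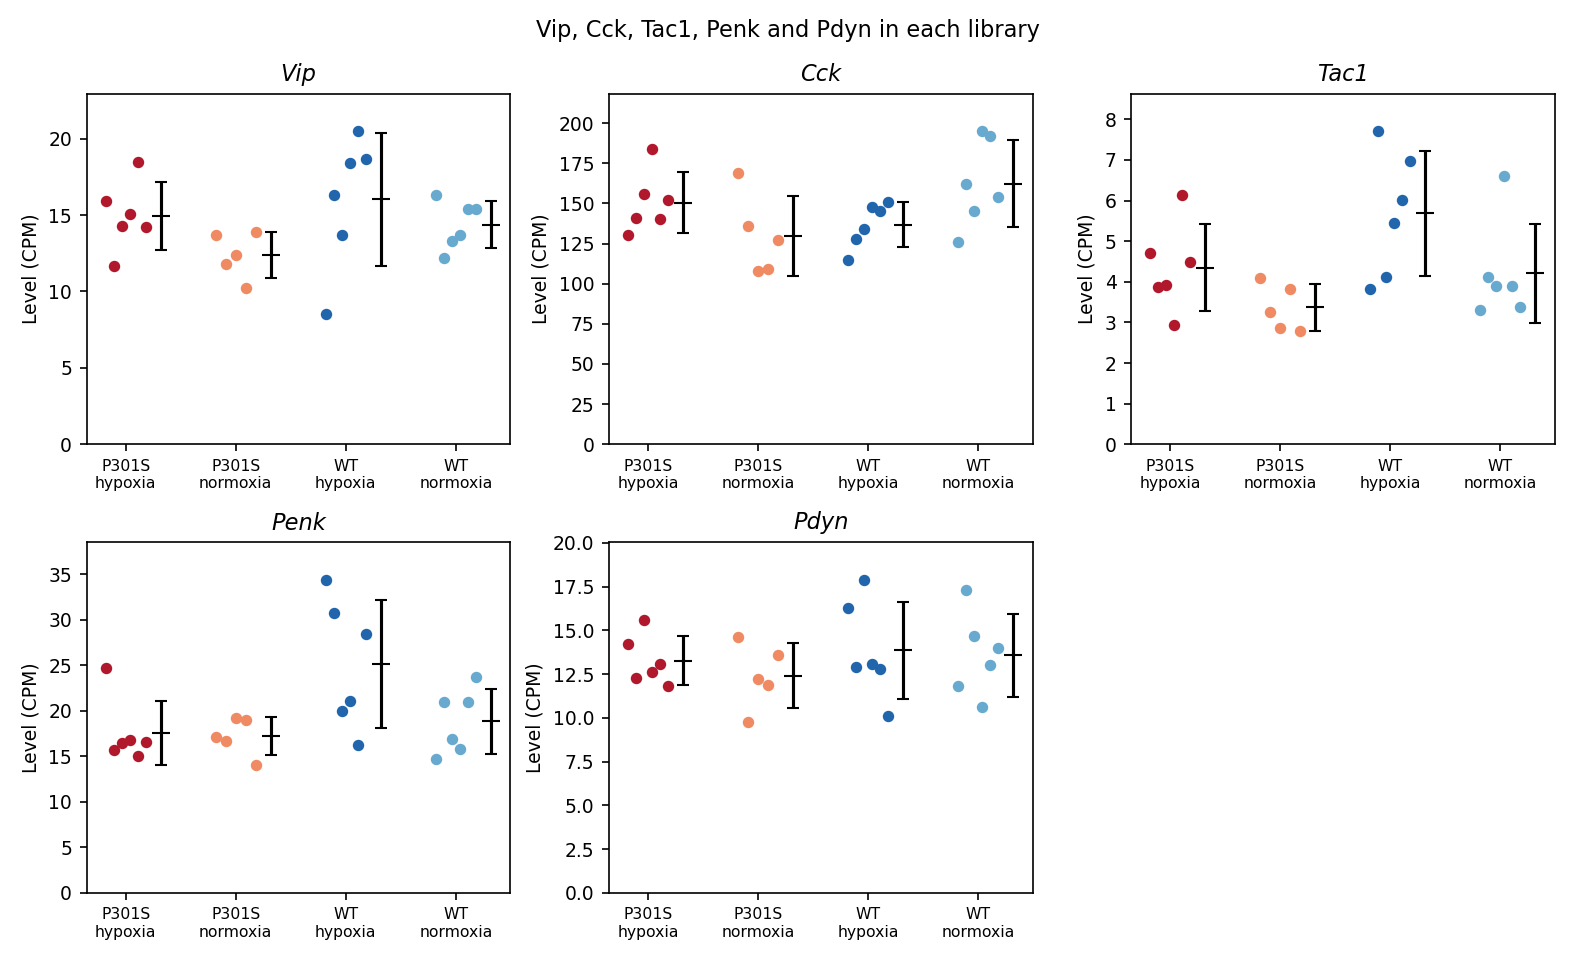
Levels of Vip, Cck, Tac1, Penk and Pdyn in CPM by group, with 1 point per library and bars for the mean and SD. The groups overlapped for each of the 5 genes, and P301S hypoxia replicate 1 stood at 24.7 CPM of Penk, above the 15 to 16.8 CPM of its group.

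Whether hypoxia acted differently in the genotypes was tested as an interaction, and 0 of 9 peptides were called by edgeR or by DESeq2, where 7 genes, 0.0394% of those tested, were. At an unadjusted p below 0.05 there were 2 of 9, where 9.43% of all genes were. For Npy the difference of the log2 hypoxia effects, P301S minus WT, was 0.36 (SE 0.119, adjusted p = 0.344, edgeR). For Cck it was 0.46 (SE 0.165, adjusted p = 0.37): Cck averaged 150 ± 19.1 CPM in P301S hypoxia and 130 ± 24.9 CPM in P301S normoxia, and 137 ± 13.7 CPM in WT hypoxia and 162 ± 26.9 CPM in WT normoxia (SD, n = 6, 5, 6 and 6). Over both genotypes, hypoxia gave a Npy value of 0.32 (SE 0.0595, adjusted p = 0.00937, edgeR), the 1 of 9 genes called, where 0.652% of tested genes were called higher and 1.33% in either direction. Tac1 and Cort had values of 0.41 each and passed beside Npy in 1 fit, that without WT normoxia replicate 4.

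Interneuron markers other than peptides had summed levels that overlapped between all 4 groups. The list of 32 such genes, among them the GABA-synthesis enzymes and transcription factors of these cells, had 30 measured. Dlx1 and Dlx6 were at 0, since both lie wholly under another gene. Summed, the list stood at 2310 to 2640 CPM in P301S hypoxia, 2100 to 2470 in P301S normoxia, 2220 to 2490 in WT hypoxia and 2170 to 2470 in WT normoxia. In P301S against WT in normoxia its median log2 change was 0.06, against 0.01 over all genes. Of all tested genes, 6.35% were called in either direction, and of those longer than Pdyn 3.63% were called higher. On the list, 2 were called higher and 0 lower. Those were Adarb2 (0.43, SE 0.0633, adjusted p = 0.00077), an RNA-editing paralogue that marks interneurons born in the caudal eminence, and Erbb4 (0.29, SE 0.0886, adjusted p = 0.0485), the neuregulin receptor of interneurons. Both have far longer gene bodies than the peptides, 566 kb and 1080 kb. With the list's score as covariate, Npy stood at -0.49 between the genotypes in normoxia (adjusted p = 0.00401, edgeR). For hypoxia in P301S it stood at 0.51 (adjusted p = 0.0103, edgeR). Within groups that score went with Npy at r = -0.32 and with Cck at -0.51. The fit therefore does not measure the cells that make Npy, whose number was not tested.

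**Figure D5:**
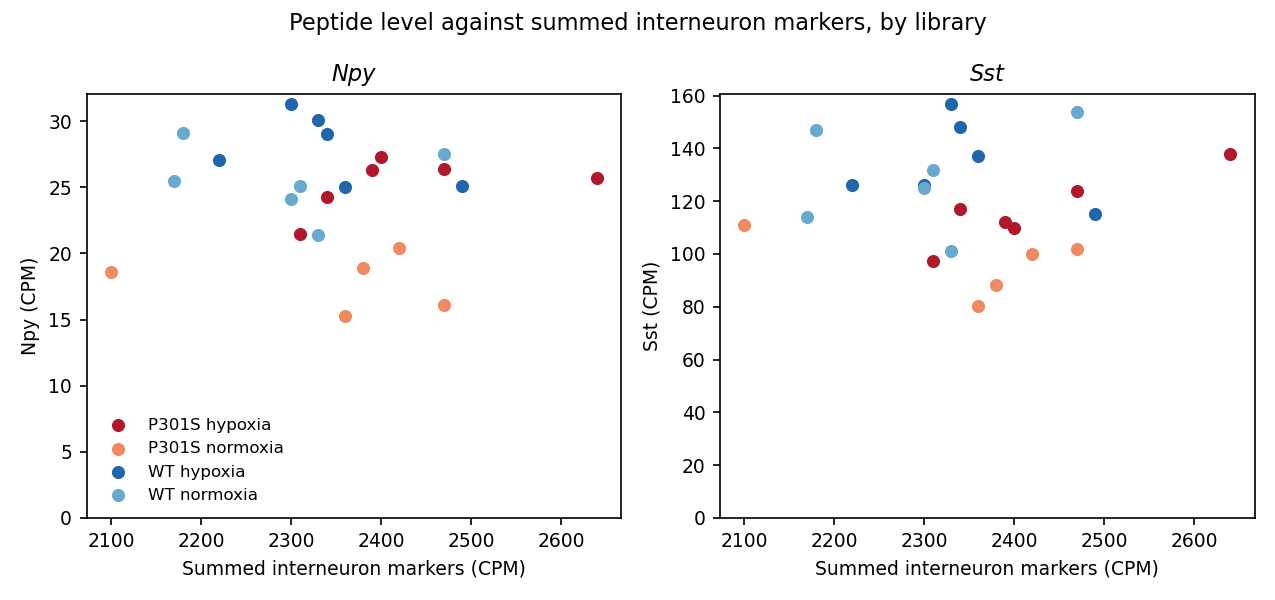
Npy (left) and Sst (right) in CPM against the summed CPM of the interneuron markers, with 1 point per library. The 5 P301S normoxia libraries held the lowest Npy values at marker sums of 2100 to 2470 CPM, against 2170 to 2640 CPM in the other groups, and 1 of the 5, replicate 1 at 2100 CPM, lay below all of those sums.

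Markers of other cells and regions are given here for hypoxia in P301S and for the genotypes in normoxia. With hypoxia in P301S, 20 of 22 dentate granule markers were positive (median 0.22, 0 called), and their sum was 1870 to 2260 CPM in P301S hypoxia, against 1600 to 1910 CPM in P301S normoxia. All 14 measured choroid plexus markers were negative there (median -0.7, 0 called), at 74 to 2750 CPM in P301S hypoxia and 598 to 3360 CPM in P301S normoxia. Kcnj13 of that list was at 0 throughout, as it lies wholly under another gene. Thalamus and habenula markers were negative in 13 of 16 (median -0.31, 0 called) and oligodendrocyte markers in 10 of 10 (median -0.18, 0 called), the oligodendrocyte sum being 3030 to 4680 CPM in P301S hypoxia and 4240 to 5080 CPM in P301S normoxia. Activity-regulated genes were negative in 17 of 23 (median -0.26), with 4 called lower, Fos (-1.34, adjusted p = 0.021) among them, and 2 called higher, Ptgs2 (0.77, adjusted p = 0.00158) and Bdnf (0.39, adjusted p = 0.0161). Their sum was 815 to 1050 CPM in P301S hypoxia and 984 to 1260 CPM in P301S normoxia. Of all tested genes, 0.41% were called in that comparison in either direction. The other cell and region lists had medians of -0.13 (neocortex and subiculum) to 0.15 (hippocampal neurons). Among them, 1 of 10 mossy cell and hilar markers and 1 of 18 CA2 and CA3 markers were called higher, where 0.18% of all tested genes were.

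In P301S against WT in normoxia, 14 of 19 neocortex and subiculum markers were positive (median 0.2, 2 called higher), at 939 to 1040 CPM in P301S normoxia and 860 to 929 CPM in WT normoxia. Thalamus and habenula markers were positive in 14 of 16 (median 0.2, 1 called higher), at 371 to 545 CPM in P301S normoxia and 320 to 528 CPM in WT normoxia. Of all tested genes, 6.35% were called in that comparison in either direction. All 14 choroid plexus markers were negative (median -0.48, 0 called), at 598 to 3360 CPM in P301S normoxia and 102 to 3770 CPM in WT normoxia. Microglia markers were negative in 7 of 8 (median -0.21, 0 called), at 235 to 385 CPM in P301S normoxia and 284 to 333 CPM in WT normoxia. The other cell and region lists and the activity-regulated genes had medians of -0.14 (CA1 pyramidal) to 0.09 (dentate granule). Beside the interneuron markers already given, 1 dentate granule and 1 striatum marker were called higher. Called lower were 1 dentate granule, 1 striatum and 1 CA2 and CA3 marker. The part of these lists in the peptide results was not tested. Within groups, the highest correlations of a peptide with a cell or region score were Cck with hippocampal neurons (r = 0.86) and Penk with CA2 and CA3 (0.71). Vip with neocortex and subiculum (0.68) and Penk with thalamus and habenula (0.66) followed, and the lowest was Cck with thalamus and habenula (-0.59). Dentate granule markers went with Pdyn at 0.59 and with Penk at -0.17. Only the choroid plexus score was fitted as covariate among them. Npy then stood at -0.52 (adjusted p = 0.00243, edgeR) between the genotypes in normoxia and at 0.48 (adjusted p = 0.0216, edgeR) with hypoxia in P301S.

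Of the 21 receptors for these peptides, 19 were measured and 0 were called by edgeR in any of the 7 contrasts tested. Sstr2, a main somatostatin receptor, was at 0 because it lies wholly under another gene, Slc39a11. The receptors of neuropeptide Y were nearest to a rise with hypoxia in P301S: Npy5r averaged 10.2 ± 0.854 CPM in P301S hypoxia and 8.37 ± 1.07 CPM in P301S normoxia (log2 fold change 0.29, adjusted p = 0.118), and Npy1r 46.3 ± 3.75 CPM and 39.1 ± 3.23 CPM in the same groups (0.24, adjusted p = 0.219). Sstr4 had a value of -0.32 (adjusted p = 0.0912) between the genotypes in normoxia.

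Among 23 genes of peptide processing and dense-core vesicles, 2 were called lower in P301S in normoxia, where 3.78% of all tested genes and 8.05% of those no longer than Pdyn were, and 0 in hypoxia. Over both conditions 0 were called lower and 1 higher, where 13.1% of all tested genes were called in either direction. That gene was Cadps, which primes dense-core vesicles (0.11, adjusted p = 0.0334, edgeR). Vgf, the precursor of several activity-induced peptides, averaged 114 ± 15 CPM in P301S normoxia and 158 ± 34.6 CPM in WT normoxia, a log2 fold change of -0.47 (SE 0.135, adjusted p = 0.0416, edgeR). The other was Rab3a, a vesicle GTPase (-0.99, adjusted p = 0.0453), at a mean of 1.18 CPM. Rab3a had 649 counts over all 23 libraries and fell to 0.208 CPM in P301S normoxia, so its call rests on few reads. With hypoxia in P301S, 18 of the 23 were positive (median 0.09, 0 called), and Vgf had a value of 0.46 (adjusted p = 0.129). The convertases Pcsk1 and Pcsk2 and the carboxypeptidase Cpe, which cut the precursors, were not called in any contrast.

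Of 12 peptide-degrading or peptide-binding genes, 1, Mme, was called in P301S against WT in normoxia, where 6.35% of all tested genes were. It encodes neprilysin, which degrades somatostatin, substance P and enkephalins. Mme averaged 11.1 ± 0.951 CPM in P301S normoxia and 7.82 ± 1.58 CPM in WT normoxia (log2 fold change 0.51, SE 0.137, adjusted p = 0.0301, edgeR). Its gene body, 144 kb, is far longer than that of any of the 9 peptide genes. Over both conditions 3 of the 12 were called, where 13.1% of all genes were: Mme (0.4, adjusted p = 0.00892) and Lnpep (0.22, adjusted p = 0.0414) were higher in P301S, and Thop1, a peptidase, was lower (-0.19, adjusted p = 0.0344). Thop1 averaged 48.3 ± 5.07 CPM in P301S hypoxia and 44.5 ± 5.08 CPM in P301S normoxia, against 52.2 ± 3.18 CPM in WT hypoxia and 53.9 ± 6.73 CPM in WT normoxia. Crhbp, the protein that binds corticotropin-releasing hormone, was called higher with hypoxia over both genotypes (0.41, SE 0.0965, adjusted p = 0.0351, edgeR). It was the 1 of 12 called there, where 0.652% of tested genes were called higher and 1.33% in either direction. It averaged 27.1 ± 5.87 CPM in P301S hypoxia and 19.5 ± 3.6 CPM in P301S normoxia, and 30.1 ± 3.37 CPM in WT hypoxia and 23.8 ± 3.07 CPM in WT normoxia.

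Of 37 other neuropeptide genes listed, 20 were measured, and 0 were called in the 4 comparisons between single groups. In P301S against WT, 14 of 20 were negative in normoxia (median log2 fold change -0.18, against 0.01 over all genes tested) and 11 of 20 in hypoxia (median -0.14). For the mean transgene effect 14 of 20 were negative (median -0.17). With hypoxia in P301S, 12 of 20 were positive (median 0.04). Over both genotypes 1 of the 20 was called with hypoxia, where 1.33% of all tested genes were called in either direction. It was Gnrh1, which was lower (-0.53, SE 0.116, adjusted p = 0.0217, edgeR). Gnrh1 averaged 1.43 ± 0.287 CPM in P301S hypoxia and 2.34 ± 0.311 CPM in P301S normoxia, and 1.65 ± 0.37 CPM in WT hypoxia and 2.09 ± 0.376 CPM in WT normoxia.

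Whether the 9 peptides vary together was left undecided by the 23 libraries. Within groups, 23 of their 36 pairs were positively correlated over the 23 libraries, and 0 pairs had an adjusted p below 0.05 (100000 permutations within groups, two-sided, Benjamini-Hochberg over 36 pairs). The highest were Npy and Cck (Pearson r = 0.63, Spearman rho = 0.62, adjusted p = 0.0622 and 0.0967) and Sst and Cck (r = 0.63, rho = 0.57, adjusted p = 0.0622 and 0.128). Npy and Sst had r = 0.61 and rho = 0.53 (adjusted p = 0.0622 and 0.138), and r = 0.45 without the 2 libraries farthest from the median of Npy. The spread within groups was smallest for Npy (SD of 0.146 on the log2 scale) and largest for Cort (0.369).

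Among 13480 protein-coding genes with a mean of at least 1 CPM, those most like each peptide over the 23 libraries were named by the highest Pearson r of log2 CPM, as a description. For Npy they were Mrpl43 (0.85), Crhbp (0.84) and Ndufa10 (0.83). For Sst they were Tmem246 (0.94), Slc25a11 (0.89) and Retreg2 (0.88), and for Cort they were Asns (0.88), Ilf2 (0.88) and Gars (0.87). Cck went with Pcsk1n, Sema6b and Icam5 (0.89 each), Vip with Cbln2 (0.78), Tac1 with Psma7 (0.76), Penk with Rgs10 (0.82), Pdyn with Nkain1 (0.74) and Crh with Tceal6 (0.82). The libraries share groups and depth, which such values hold too.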

How the data were processed

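Whole hippocampus of 23 samples was sequenced as stranded mRNA libraries, per the labels' protocols. Per the file headers, the authors deposited raw counts per gene of paired reads, obtained by featureCounts 1.6.2 and Ensembl 90 on GRCm38 from alignments with duplicates removed. Whole gene bodies were counted without strand, and reads over more than 1 gene were dropped, which sets genes lying wholly under another gene to 0. The submitters' processing notes name HISAT2 and DESeq2 1.6.3. GENCODE M21, on the same assembly, gave symbols for 52489 of 52636 genes and exon lengths. The 9 members and the gene lists were chosen with earlier results of these data known. The genes likest each member follow from a rule, the highest correlations, and up to 4 genes of a list with the lowest p are named.

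Genes were kept by filterByExpr (minimum count 10), leaving 17788, and scaled by TMM (factors 0.961 to 1.03). One edgeR 4.0.16 quasi-likelihood model (the newer method, robust) with 4 group means gave 7 two-sided contrasts, with Benjamini-Hochberg adjustment over all tested genes and a threshold of 0.05. Fold changes are log2 values and intervals are 95%. Replicates were numbered in accession order. Log2 CPM used a prior count of 2. DESeq2 1.42.0 was an alternative, beside other size factors, filters, covariates, subsets of libraries, the removal of length and GC trends, and edgeR's older method. The length and GC removal together with the choroid covariate and the older method were chosen after seeing the data. The scripts were tested on simulated data. Total counts of 19.1 to 25.8 M per library limit precision most for Crh and Cort.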

Additional observations from a re-analysis of the deposited data

Results flagged for a closer look

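Each gene's values were searched in each of the 4 groups, 36 sets in all, for a library set apart from its group by a gap large against the group's range. Chance gives about 1 in 20 such sets, and 2 were found. Tac1 in WT normoxia replicate 4 stood at 6.61 CPM, with the next library of its group at 4.13 CPM. The same library held the highest Cort (5.19 CPM) and Crh (1.7 CPM) values of WT normoxia and is 1 of the 6 libraries low in choroid plexus markers, at 102 CPM. Penk in P301S hypoxia replicate 1 stood at 24.7 CPM, with the next library at 16.8 CPM, and that library is another of the 6, at 74 CPM of choroid plexus markers.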

How the results depend on the processing

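Called peptides in P301S against WT in normoxia were 2, and numbered 4 with a mean CPM of at least 1 and 1 with only the groups compared, with the length and GC trend removed, with that and the choroid plexus covariate, or without the 6 libraries low in choroid plexus. Leaving out 1 library gave 1 to 5, with the 5 found without WT normoxia replicate 1. In hypoxia, 1 was called, and 2 with DESeq2 or the interneuron covariate, 0 with the length and GC trend removed or without the 6 libraries, and 0 to 2 with 1 library left out. Leaving out 1 library gave 0 to 1 for hypoxia in P301S and 1 to 3 for the mean hypoxia effect. The mean transgene effect gave 4, and 2 once length and GC trends were removed, with or without the covariate. Over all genes, calls in normoxia fell to 433 of 1130 with that trend removed and to 368 with only the groups compared, and rose to 1617 with DESeq2. No called value of these peptides changed sign under any alternative.

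Uncalled values changed sign in a few fits. Without the 6 libraries they were -0.05 (Pdyn) and 0.34 (Crh) for hypoxia in WT, -0.1 (Penk) for hypoxia in P301S, -0.03 (Sst) and -0.04 (Crh) for the interaction and 0 (Cck) for mean hypoxia. With the length and GC trend removed, Cck was 0.01 for mean hypoxia and 0 for the mean transgene effect. With 1 library left out, Pdyn ran from -0.14 to 0.03 between genotypes in hypoxia, from -0.06 to 0.11 for hypoxia in WT and from -0.01 to 0.16 for the interaction. Crh ran from -0.22 to 0.03 for hypoxia in WT, Penk from -0.09 to 0.07 for hypoxia in P301S, Vip from -0.01 to 0.19 and Tac1 from -0.25 to 0.04 for the interaction, and Cck from -0.05 to 0.04 for mean hypoxia. The cause was not tested. No paired analysis was possible because replicate numbers are accession order only and the labels tie no libraries across groups. Depth limits Crh and Cort most.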
